A study of Homo sapiens with 16 samples.

Results

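The cell division genes described here were MYC and MYCL, the D cyclins CCND1, CCND2 and CCND3, their kinases CDK4 and CDK6, and the inhibitors CDKN1A, CDKN1B and CDKN2B. They were chosen by symbol as the G1 control genes usually linked to Wnt output. All 10 were found among the 26485 gene symbols counted. RNA with poly(A) tails was sequenced from SW480 and SW620, human colon cancer cell lines whose mutant APC leaves beta-catenin signalling switched on. Each line carried either GFP, the mock control labelled as high in Wnt activity, or dnLEF1, labelled as low. dnLEF1 is a LEF1 without its beta-catenin binding part, which sits on Wnt target genes without activating them. There were 4 libraries in each of 4 groups (SW480 GFP, SW480 dnLEF1, SW620 GFP and SW620 dnLEF1), 16 in all, from cells of passage 6 grown in DMEM and lifted with trypsin and EDTA. The labels do not say whether the libraries of a group came from separate cultures, or whether a construct line was 1 clone, so a p-value here is set against variation among libraries that could be technical only. In bulk RNA, fewer cells making a transcript and less transcript per cell cannot be told apart.

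A cell commits to division late in G1. Growth signals raise D cyclins, which bind CDK4 or CDK6, and the paired kinases phosphorylate the retinoblastoma protein so that E2F factors can switch on the genes of DNA replication. Inhibitors of the INK4 family, such as p15 from CDKN2B, bind CDK4 and CDK6 themselves, while p21 from CDKN1A and p27 from CDKN1B act on cyclin and kinase complexes. MYC is a transcription factor that drives growth and cell cycle entry, and in the intestine MYC and CCND1 are the textbook links between beta-catenin and proliferation.

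Gene counts ran from 17181204 to 26153506 per library. Lines that name no gene held 19.98% to 50.5% of the totals, and the highest share was in SW620 GFP replicate 3, where 39.4% of the total had aligned to more than 1 place. Levels below are CPM, read counts scaled to library size over all 16 libraries, as mean ± SD (n = 4). Of 10 markers of colon epithelium, 5 to 7 were above 1 CPM in each group, EPCAM, KRT8, KRT18, CDH1 and VIL1 in every group, and their summed level was 6594 to 7968 CPM in SW480 dnLEF1 against 9901 to 11570 CPM in SW480 GFP. KRT20, CDX1 and GPA33 were not above 1 CPM in any group. Summed leukocyte markers reached at most 5.88 CPM and endothelial markers 3.87 CPM, and fibroblast markers lay between 8.89 and 38.0 CPM. Their part in the results was not tested.

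LEF1, from which the construct is made, rose in both lines. It went from 51.7 ± 1.89 to 246 ± 49.1 CPM in SW480 and from 3.36 ± 0.501 to 23.3 ± 2.35 CPM in SW620, with no overlap between the libraries of either line. With dnLEF1, LEF1 was 10.6-fold lower in SW620 than in SW480 (edgeR adjusted p = 1.47e-11). Its level in SW620 dnLEF1 was also below that in SW480 GFP. AXIN2, a feedback target of the pathway, followed the label in SW480 only. It fell 7.87-fold there (edgeR adjusted p = 1.22e-12), while in SW620 it was at 333 ± 14.6 CPM with GFP and 320 ± 11.2 CPM with dnLEF1 (edgeR adjusted p = 0.607). The difference between these effects was 2.92 ± 0.08 on the log2 scale (edgeR adjusted p = 1.02e-15). The libraries labelled low in Wnt activity in SW620 thus had no measured fall of AXIN2.

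CDK4 and CDK6 are shown by sequence because CDK4 passed the test in no comparison between groups and CDK6 in all but the SW620 one. The 250 bases before each start, from RefSeq on GRCh38.p14, are on the minus strand at chr12:57752311-57752560 for CDK4 and, for the upstream of the 2 CDK6 starts, at chr7:92836574-92836823. They are written 5′ to 3′ and capitals mark CACGTG, the E-box that MYC and its partner MAX bind.
CDK4: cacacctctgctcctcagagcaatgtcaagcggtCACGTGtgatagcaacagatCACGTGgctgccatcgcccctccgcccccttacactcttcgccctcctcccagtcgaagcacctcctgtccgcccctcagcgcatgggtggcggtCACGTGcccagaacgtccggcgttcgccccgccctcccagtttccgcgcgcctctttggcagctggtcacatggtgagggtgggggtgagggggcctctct
CDK6: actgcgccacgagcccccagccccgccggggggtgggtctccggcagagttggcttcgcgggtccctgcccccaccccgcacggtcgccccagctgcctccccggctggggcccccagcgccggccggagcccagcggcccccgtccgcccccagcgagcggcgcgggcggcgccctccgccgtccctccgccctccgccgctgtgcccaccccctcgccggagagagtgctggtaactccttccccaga
The CDK4 stretch holds the letters CACGTG at 216, 196 and 101 bases before the start. Of 35116 RefSeq windows of 300 bases around a start, 7.26% hold CACGTG at least once and 33 (0.0940%) hold it 3 times or more. The CDK6 window has 1 match, 30 bases after the start and so outside the printed stretch, and none around the other start. CTTTGAT, a core recognised by TCF and LEF factors, was searched for on both strands and is in 2.62% of windows. It was not in the windows of MYCL, CCND3, CDK4, CDK6, CDKN1A, CDKN1B or CDKN2B, the 7 members with an entry, and the same held for the E2F letters TTTCCCGC and TTTGGCGC (2.27% of windows). These are matches of letters in short windows and not measured sites.

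In SW480, 5 of the 10 genes were lower with dnLEF1 and 1 was higher. CCND2, MYCL, CCND1, CDK6 and CDKN2B fell, 12.98-fold to 1.63-fold, and CDKN1A rose 1.19-fold. MYC, CCND3, CDK4 and CDKN1B did not pass the test. In this comparison 48.5% of the 14426 genes tested were called at an adjusted p below 0.05 (edgeR's quasi-likelihood test with Benjamini-Hochberg adjustment), 24.2% higher and 24.4% lower, so the 6 called of 10 lie near the background. The median log2 change was -0.33 over the 10 genes and -0.00 over all genes.

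**Figure D1:**
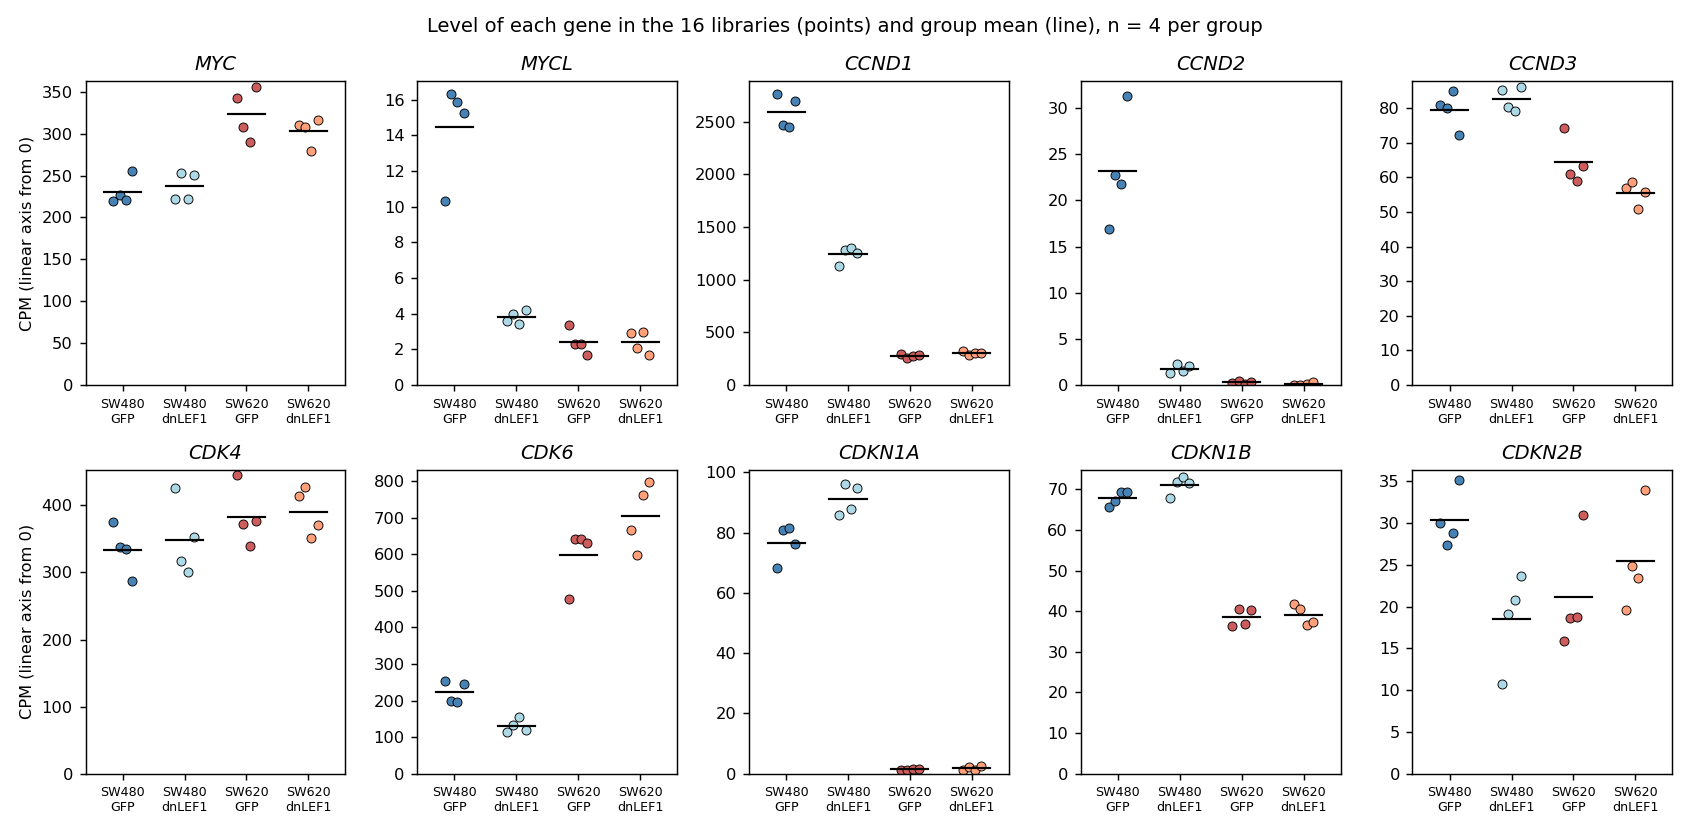
CPM of each of the 10 genes in the 16 libraries, on linear axes that start at 0. Points are libraries and lines are means of 4. CCND1, CCND2 and MYCL step down with dnLEF1 in SW480 and lie low in both SW620 groups, CDKN1A is close to 0 in SW620 and CDK6 is highest there.

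MYC, the transcription factor most often named as the Wnt link to growth, did not change detectably in SW480. Its 4 GFP libraries had 219, 227, 220 and 255 CPM and its dnLEF1 libraries 223, 253, 222 and 250 CPM. The ranges lay over each other, and the log2 change was 0.05 ± 0.07 (edgeR adjusted p = 0.627), with a 95% interval of -0.10 to 0.19. MYCL, the L-MYC paralogue, was much scarcer. It had 10.3, 16.3, 15.9 and 15.3 CPM with GFP and 3.59, 3.98, 3.45 and 4.21 CPM with dnLEF1. The groups did not overlap, although GFP replicate 1 was well under the other 3, and the log2 change was -1.92 ± 0.15 (edgeR adjusted p = 1.28e-07).

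CCND1 encodes cyclin D1 and lies on chromosome 11 at 69641156 to 69654474 (hg38, plus strand). In SW480 it had 2762, 2466, 2449 and 2694 CPM with GFP and 1130, 1287, 1298 and 1252 CPM with dnLEF1. Every dnLEF1 library was far below every GFP library, and the log2 change was -1.06 ± 0.07 (edgeR adjusted p = 2.84e-08). CCND2, cyclin D2 (chromosome 12, 4269771 to 4305353, plus strand), had 16.9, 22.8, 21.8 and 31.4 CPM with GFP and 1.31, 2.24, 1.52 and 2.04 CPM with dnLEF1. This was the steepest fall among the 10, a log2 change of -3.70 ± 0.21 (edgeR adjusted p = 2.99e-09), at 163 counts over the 4 dnLEF1 libraries. CCND3, cyclin D3, did not pass in SW480, at 79.5 ± 5.27 CPM with GFP and 82.7 ± 3.44 CPM with dnLEF1 (edgeR adjusted p = 0.505).

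Scaled for exon length, CCND1 made up nearly all D cyclin transcript in SW480. Per kilobase of exons its level was 545 ± 33.3 CPM with GFP and 261 ± 16.2 CPM with dnLEF1, against 13.8 ± 0.915 and 14.4 ± 0.597 CPM for CCND3. The sum over the 3 D cyclins was 561 ± 32.8 CPM per kilobase with GFP and 275 ± 15.9 with dnLEF1, without overlap. The share held by CCND3 went from 2.16% to 2.77% in the GFP libraries to 4.79% to 5.86% in the dnLEF1 libraries, and that held by CCND2 from 0.354% to 0.674% down to 0.0651% to 0.0987%. CCND1 held 96.7% to 97.3% with GFP and 94.1% to 95.1% with dnLEF1. These are shares within a library, so they do not depend on the scaling between libraries.

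**Figure D2:**
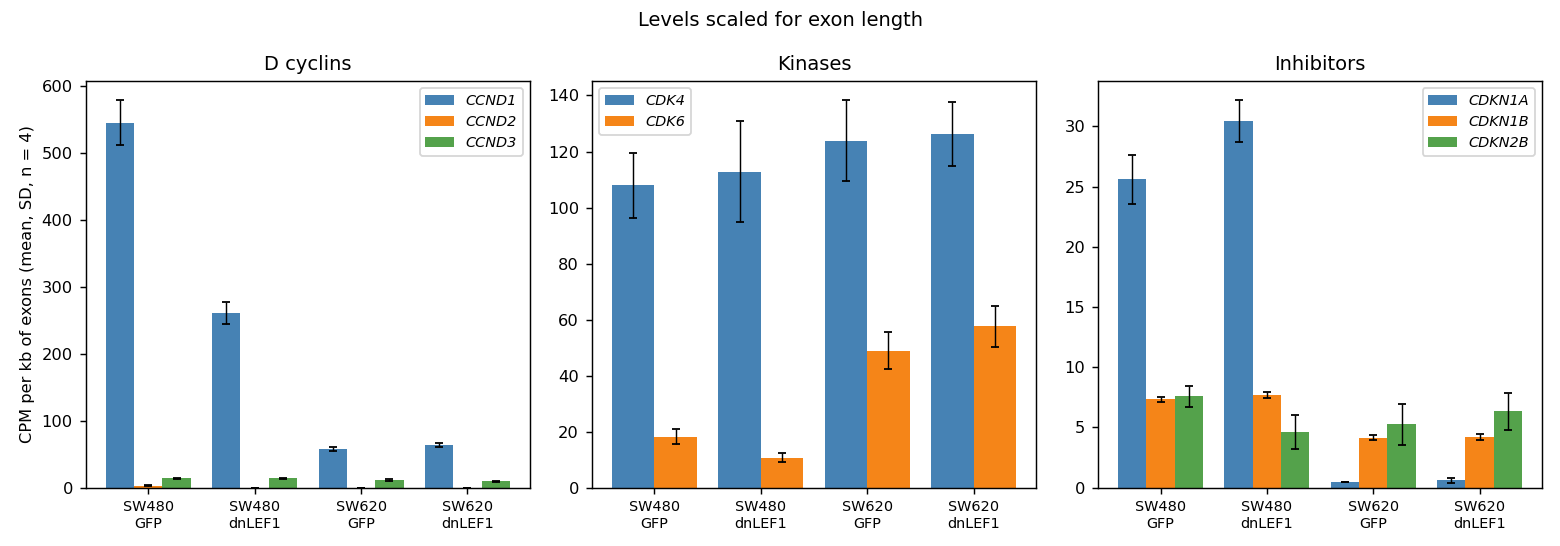
Levels in CPM per kilobase of annotated exons for the D cyclins, the 2 kinases and the 3 inhibitors in each group. Bars are means of 4 libraries from 0 and whiskers are SD. CCND1 dominates the D cyclins in every group. The highest of the 3 inhibitors per kilobase is CDKN1A in SW480 and CDKN2B in SW620. Without the scaling for length, CDKN1B is above CDKN2B in SW620.

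Of the kinases, only CDK6 moved in SW480. CDK6 (chromosome 7, 92604921 to 92836573, minus strand) had 255, 198, 196 and 246 CPM with GFP and 113, 133, 156 and 121 CPM with dnLEF1. The groups did not overlap, and the log2 change was -0.77 ± 0.11 (edgeR adjusted p = 4.02e-05). CDK4 (chromosome 12, 57747727 to 57756013, minus strand) had 375, 338, 335 and 287 CPM with GFP and 425, 317, 300 and 354 CPM with dnLEF1, with wide overlap (log2 0.07 ± 0.11, edgeR adjusted p = 0.632). The ratio of CDK6 to CDK4 per kilobase, taken within each library, was 0.148 to 0.216 with GFP and 0.0674 to 0.132 with dnLEF1. CDK4 shares 1369 exon bases with TSPAN31, annotated on the opposite strand, and the strand setting of the counting is not given in the sources used here. TSPAN31 averaged 23.7 CPM over the 16 libraries.

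The 3 inhibitors went different ways in SW480. CDKN1A, which encodes p21 (chromosome 6, 36676460 to 36687337, plus strand), had 68.2, 80.8, 81.6 and 76.1 CPM with GFP and 85.8, 96.1, 87.9 and 94.96 CPM with dnLEF1. Each dnLEF1 library was above each GFP library by a narrow margin, and the log2 change was 0.25 ± 0.07 (edgeR adjusted p = 0.0108). CDKN1B, which encodes p27, did not pass, at 67.9 ± 1.77 and 71.0 ± 2.18 CPM (edgeR adjusted p = 0.362). CDKN2B, which encodes the INK4 protein p15 (chromosome 9, 22002903 to 22009305, minus strand), had 29.9, 27.4, 28.9 and 35.1 CPM with GFP and 10.8, 19.1, 20.7 and 23.7 CPM with dnLEF1. Every dnLEF1 library was below every GFP library, and CDKN2B fell by 0.71 ± 0.17 on the log2 scale (edgeR adjusted p = 0.00365).

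The antisense gene CDKN2B-AS1 runs over CDKN2B on the other strand. The annotated exons of these genes share 0 bases. CDKN2B-AS1 was at 2.49 ± 0.0639 CPM with GFP and 2.28 ± 0.202 CPM with dnLEF1 in SW480 (edgeR adjusted p = 0.536). CDKN2A, the neighbouring INK4 gene for p16 and ARF, was at 63.7 ± 3.11 and 74.4 ± 13.1 CPM (edgeR adjusted p = 0.0816). Of the 8 other genes tested within 2 Mb of CDKN2B, 2 fell and 1 rose, with a median log2 change of -0.12.

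In SW620, none of the 9 genes that could be tested passed with dnLEF1 (edgeR adjusted p below 0.05), where 8.46% of 13336 genes were called, 6.03% higher and 2.43% lower. DESeq2 and limma voom also called 0, and 3 genes, CCND1, CCND3 and CDK6, had an unadjusted p below 0.05. A fit with the replicate number as a block called CDK6 (edgeR adjusted p = 0.0163) and CDKN2B (0.0141) higher and CCND3 (0.0237) lower. CCND2 was not tested, as its counts were too low, with 24 counts over the 4 GFP libraries and 12 over the 4 dnLEF1 libraries.

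For each gene tested, the SW620 libraries gave an interval for the size of the change, set against variation among libraries. MYC had 342, 308, 290 and 356 CPM with GFP and 310, 308, 279 and 316 CPM with dnLEF1, a log2 change of -0.10 with a 95% interval of -0.23 to 0.04 (edgeR adjusted p = 0.507). CCND1 had 291, 259, 276 and 282 CPM with GFP and 322, 286, 300 and 302 CPM with dnLEF1, overlapping groups with an interval of 0.01 to 0.24 on the log2 scale (edgeR adjusted p = 0.231). The interval thus holds no fall, beside the 2.08-fold fall in SW480. CDKN1A was measured less closely, with a log2 change of 0.34 and an interval of -0.16 to 0.85 (edgeR adjusted p = 0.524). That interval holds the CDKN1A change of 0.25 in SW480. The MYCL interval ran from -0.45 to 0.47.

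CCND3 had 74.4, 61.1, 58.9 and 63.4 CPM with GFP and 56.9, 58.7, 51.0 and 55.9 CPM with dnLEF1 in SW620. Those groups did not overlap, but only just, and the log2 change of -0.21 ± 0.08 missed the threshold (edgeR adjusted p = 0.111). CDK6 had 478, 641, 642 and 631 CPM with GFP and 665, 598, 761 and 796 CPM with dnLEF1. GFP replicate 1 stood apart on the low side, and the log2 change was 0.24 ± 0.10 (edgeR adjusted p = 0.219). CDKN2B had 15.9, 18.6, 18.8 and 31.0 CPM with GFP and 19.5, 24.9, 23.4 and 34.0 CPM with dnLEF1 (log2 0.27 ± 0.19, edgeR adjusted p = 0.494). Replicate 4 was the highest for CDKN2B in each of the 4 groups of the study.

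The effect of dnLEF1 differed between the lines for 5 of the 10 genes (edgeR interaction test over 16 libraries, where 28.5% of 14926 genes were called, 16.2% with the SW620 effect above the SW480 effect). All 5 had that direction. LEF1 was 10.6-fold lower in SW620 dnLEF1 than in SW480 dnLEF1, so line and construct level cannot be told apart in this difference. The SW620 effect minus the SW480 effect was 1.93 ± 0.29 for MYCL (edgeR adjusted p = 3.06e-05), 1.19 ± 0.09 for CCND1 (edgeR adjusted p = 1.88e-09) and 1.01 ± 0.17 for CDK6 (edgeR adjusted p = 9.45e-05). For CDKN2B it was 0.98 ± 0.29 (edgeR adjusted p = 0.0161). For CCND2 it was 2.71 ± 0.85 (edgeR adjusted p = 0.0213), which rested on the few SW620 counts: without SW620 dnLEF1 replicate 4, the library with the most of them, it was 1.66 (edgeR adjusted p = 0.348), and with limma voom 2.32 (adjusted p = 0.0590). CCND3 had the other sign, -0.27 ± 0.10 (edgeR adjusted p = 0.0533), and passed in 9 of 22 alternatives. The difference did not pass for MYC (edgeR adjusted p = 0.346), CDK4, CDKN1A or CDKN1B.

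**Figure D3:**
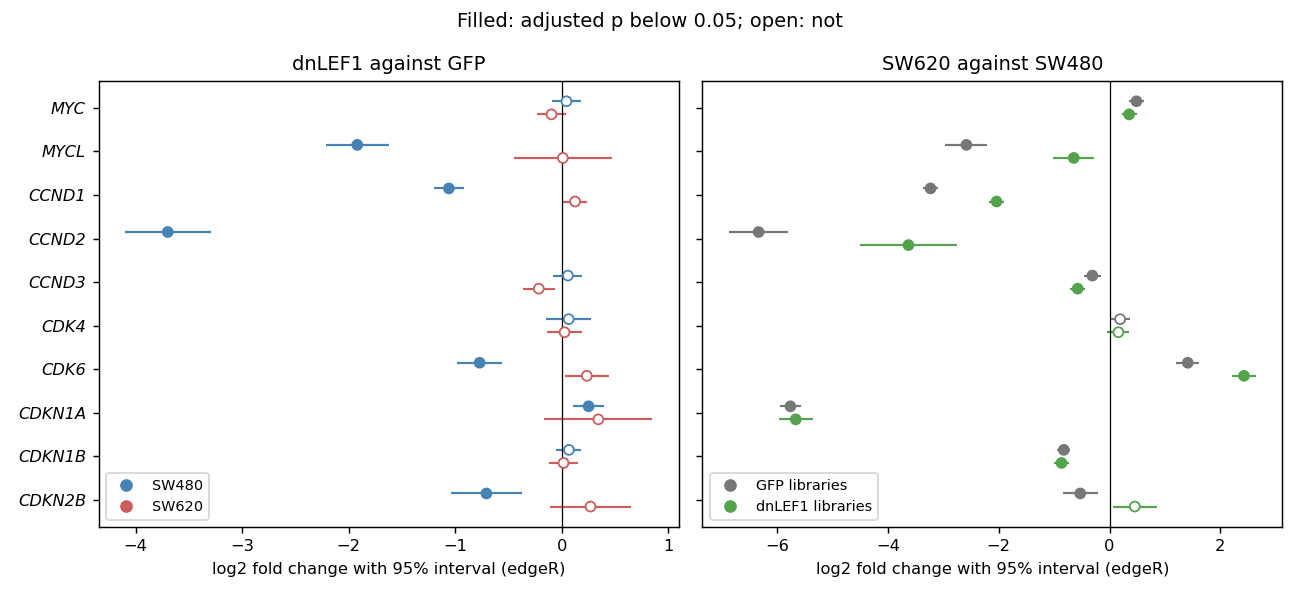
Log2 fold changes of the 10 genes with 95% intervals, for dnLEF1 against GFP in each line (left) and SW620 against SW480 with each construct (right). Filled points passed the test. In SW480 5 genes lie left of 0 and passed, and CDKN1A lies right of 0 and passed. No SW620 point on the left passed, and the SW620 intervals of CDKN1A, MYCL and CDKN2B are wide.

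Most of the 10 genes also differed between the lines themselves. With GFP, 9 of the 10 genes differed, 2 higher and 7 lower in SW620, in a comparison where 78.0% of 14350 genes were called, 37.7% higher and 40.3% lower. CDKN1A was 54.3-fold lower in SW620, with 1.36, 1.34, 1.54 and 1.43 CPM against 68.2 CPM or more in SW480 (log2 -5.76 ± 0.10, edgeR adjusted p = 2.93e-15). CCND2 was 80.8-fold lower, CCND1 9.40-fold (log2 -3.23 ± 0.07, edgeR adjusted p = 1.36e-14) and MYCL 6.00-fold. CDKN1B was 1.77-fold lower, CDKN2B 1.44-fold and CCND3 1.24-fold, and for the last 2 the libraries of the lines overlapped. CDK6 was 2.66-fold higher in SW620 (edgeR adjusted p = 1.83e-08) and MYC 1.40-fold (edgeR adjusted p = 2.49e-05). CDK4 did not pass (log2 0.19 ± 0.09, edgeR adjusted p = 0.0615). It did with replicate 1 of SW480 GFP left out (0.25, edgeR adjusted p = 0.0148) and with SW620 GFP replicate 3 left out (0.25, edgeR adjusted p = 0.0217). It also passed with no filter on low counts (0.20, edgeR adjusted p = 0.0428) and with the replicate number as a block (0.19, edgeR adjusted p = 0.0136).

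With dnLEF1 in both lines 8 of the 10 genes differed, 2 higher and 6 lower, beside 78.9% of 14397 genes called, 38.7% higher and 40.2% lower (edgeR). CDK6 was then 5.38-fold higher in SW620, CCND1 4.11-fold lower, CCND2 12.4-fold lower and MYCL 1.56-fold lower. CDKN1A remained 50.8-fold lower. CDKN2B was at 18.6 ± 5.53 CPM in SW480 dnLEF1 and 25.4 ± 6.11 CPM in SW620 dnLEF1 (log2 0.46 ± 0.20, edgeR adjusted p = 0.0501), and it passed in 7 of 15 alternatives. CDK4 did not pass with dnLEF1 either (log2 0.16 ± 0.10, edgeR adjusted p = 0.158), except with replicate 1 of SW480 dnLEF1 left out (adjusted p = 0.00895). These line comparisons share libraries with the construct comparisons above.

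Across the 4 groups, the levels fell into a few orders. For CCND1 and MYCL the order was SW480 GFP, SW480 dnLEF1, SW620 dnLEF1 and SW620 GFP from high to low, and the last 2 overlapped. For CCND2 it was the same except that the SW620 groups, which overlapped, were swapped. For CDK6 it was SW620 dnLEF1, SW620 GFP, SW480 GFP and SW480 dnLEF1, with overlap between the SW620 groups only. For MYC the SW620 groups, at 324 ± 30.2 with GFP and 303 ± 16.5 CPM with dnLEF1, lay above the SW480 groups without overlap, and the groups within each line overlapped. CDK4 had overlap at every step and CDKN2B likewise.

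Per kilobase of exons the makeup of the inhibitors differed between the lines. In SW480 GFP the level was 25.6 ± 2.06 CPM for CDKN1A, 7.34 ± 0.191 for CDKN1B and 7.58 ± 0.846 for CDKN2B. In SW620 GFP it was 0.473 ± 0.0310, 4.16 ± 0.236 and 5.27 ± 1.69. CDKN1A thus held 60.9% to 65.7% of the 3 in SW480 GFP and 3.79% to 5.61% in SW620 GFP. The length used was that of all annotated exons of a gene joined, 9255 bases for CDKN1B and 4000 for CDKN2B. Without this scaling CDKN1B, at 38.5 ± 2.18 CPM, was above CDKN2B, at 21.1 ± 6.74 CPM, in SW620 GFP. The order of these genes therefore depends on the length taken. The D cyclin sum per kilobase was 69.4 ± 3.74 CPM in SW620 GFP, and CCND3 held 14.99% to 17.4% of it. The ratio of CDK6 to CDK4 was 0.272 to 0.479 in SW620 GFP, above all SW480 libraries.

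Many genes around CDK6 on chromosome 7 differed in one direction in the SW620 comparisons. In SW620, 15 of the 16 other genes tested within 2 Mb of CDK6 had a positive log2 change with dnLEF1 and 9 rose, with a median of 0.34 beside the CDK6 value of 0.24. Within 10 Mb, 115 of 120 were positive, with a median of 0.39. The rise was not confined to the surroundings of CDK6. Over all of chromosome 7, 236 of 600 genes tested (39.3%) were called higher, with a median of 0.255, against 6.03% of all genes. Between the GFP libraries the genes near CDK6 went the other way. Of 18 within 2 Mb, 15 were lower in SW620 and 2 were higher, with a median of -0.94. CDK6 itself was higher by 1.41 ± 0.11 on the log2 scale. Within 10 Mb 118 of 132 were lower, with a median of -1.06, where 40.3% of all genes were called lower. In SW480, 5 of the 17 neighbours within 2 Mb rose and 5 fell with dnLEF1. Around the other 9 genes, the median change of the tested genes within 2 Mb in SW620 lay between -0.05 and 0.09.

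**Figure D4:**
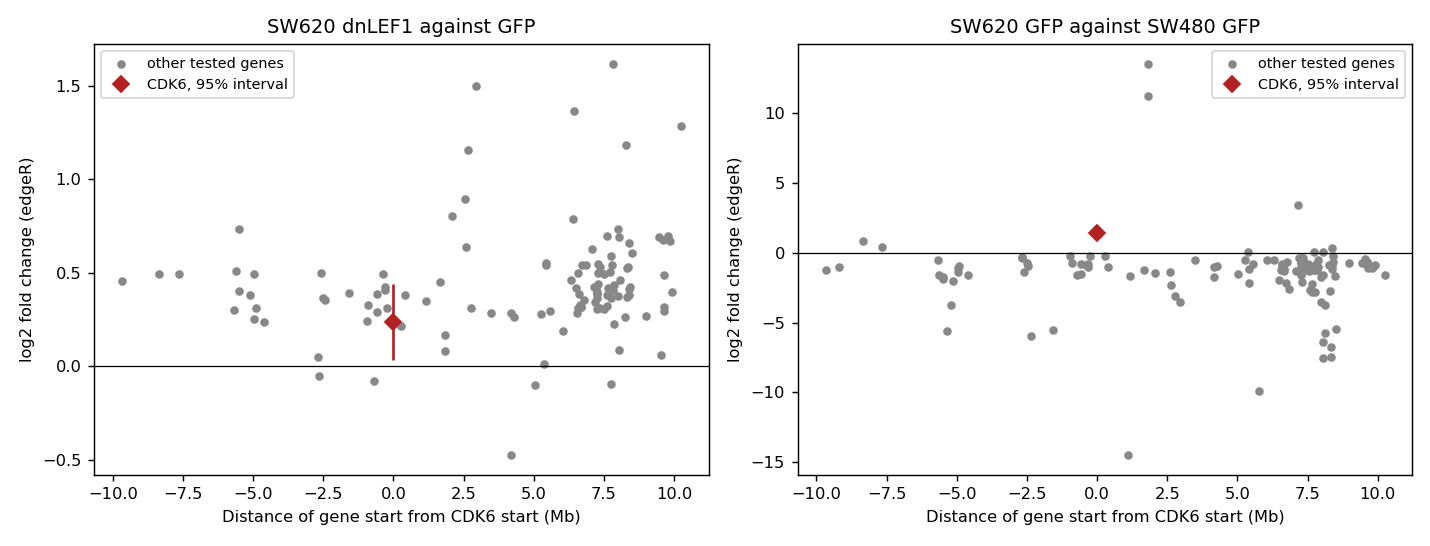
Log2 fold change of each tested gene with any part within 10 Mb of CDK6 against the distance of its start from the CDK6 start, for dnLEF1 against GFP in SW620 (left) and for SW620 GFP against SW480 GFP (right). The diamond is CDK6 with its 95% interval. Most genes lie above 0 on the left and below 0 on the right, where CDK6 is above 0.

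Courses over the 16 libraries were compared as log2 of CPM plus 0.5, centred on each gene's mean. Among 10980 genes, the nearest by root mean square difference were sought for the 5 genes whose group means spanned more than 1. For CCND1 they were MIR503HG (0.173), SLIT1 (0.185) and IGFBP6 (0.208), and for MYCL NSMF (0.258), MYO1D (0.273) and MPZL2 (0.306). For CCND2 they were ITGA1 (0.391), TENM2 (0.411) and RAPGEF3 (0.469), for CDK6 TMC7 (0.148), ZNF711 (0.151) and HIPK2 (0.151), and for CDKN1A ITGA3 (0.250), DDX26B (0.257) and KCNN4 (0.276). TENM2 and DDX26B averaged 0 CPM in both SW620 groups, and MIR503HG, SLIT1 and KCNN4 were under 1 CPM there. Their likeness therefore depends in part on the added 0.5. IGFBP6, for example, had mean levels of 150 and 80.7 CPM in SW480 GFP and dnLEF1 and of 14.9 and 17.5 CPM in SW620 GFP and dnLEF1.

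Of 30 other genes of G1 to S control tested in SW480, 4 rose and 8 fell, with a median log2 change of -0.09. Over all genes tested in this comparison 24.2% were called higher and 24.4% lower, with a median of -0.00, so the called share of this list lay below the background. CDKN1C, which encodes the inhibitor p57, fell from 6.72 to 1.66 CPM (log2 -2.01 ± 0.24, edgeR adjusted p = 9.33e-06). CCNE1, cyclin E1, which acts after the D cyclins, rose by 0.56 ± 0.10 on the log2 scale (edgeR adjusted p = 0.000390), and E2F7, a repressive E2F, had a change of -0.54 ± 0.11. The falls were 4 without GFP replicate 1 and 5 without dnLEF1 replicate 4. Of 38 E2F target and proliferation genes 12 fell and 5 rose, with a median of -0.09, which is also no larger a called share than the 48.5% of all genes. Among them the replication genes POLA1 (-0.56 ± 0.09) and GINS1 (-0.48 ± 0.07) and the checkpoint kinase gene CHEK1 (-0.41 ± 0.08) fell, while CDC20 (0.43 ± 0.08), an activator of the anaphase complex, rose. The rises were 9 without GFP replicate 1.

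MYC's partners and targets did not shift one way in SW480. Of 15 genes of the MYC network 4 rose and 4 fell, among them MXD4, a MAX partner that opposes MYC (0.82 ± 0.16 on the log2 scale), and MXD1, a relative (-0.56 ± 0.10). MYCN rose by 2.04 ± 0.32 but only to 1.195 CPM. Of 40 MYC target genes 6 rose, 3 fell and 31 did not pass, with a median of 0.07, a called share well under the 48.5% of all genes tested. The nucleolar genes UTP20 (-0.53 ± 0.11) and NOLC1 (-0.34 ± 0.08) fell and RRP9 (0.47 ± 0.11) rose. The rises ran from 2 to 12 with 1 library left out, with 12 without GFP replicate 1, 3 without GFP replicate 2, and 2 without GFP replicate 4 or without dnLEF1 replicate 1. Of 25 p53 target genes besides CDKN1A, 6 rose and 6 fell, a called share close to that of all genes. GADD45A (-0.77 ± 0.08) and PLK2 (-0.73 ± 0.08) fell while the death receptor gene TNFRSF10B (0.44 ± 0.07) rose. For comparison, 13 of 16 Wnt feedback and target genes fell and 1 rose, with a median of -2.00. NOTUM, which inactivates Wnt ligands, changed by -3.33 ± 0.10, the transcription factor gene SP5 by -2.59 ± 0.08 and APCDD1, an inhibitor of the pathway, by -2.66 ± 0.09.

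In SW620 few genes of these lists passed with dnLEF1, and few of all genes did. Of all 13336 tested, 8.46% were called, 6.03% higher and 2.43% lower. Of the 40 MYC target genes 0 passed (edgeR adjusted p below 0.05), and DESeq2 and limma voom also called 0. Without GFP replicate 1, 2 rose, and 3 had an unadjusted p below 0.05 with all libraries. With the replicate number as a block 2 were called higher and 2 lower. Of 30 G1 to S genes 2 rose and 2 fell, of 38 E2F target genes 3 rose, and of 14 MYC network genes and 25 p53 targets 1 each rose. Among the genes that rose, CDK7, CCNH, CCNB1 and PLK2 lie on chromosome 5 and MCM7 and MLXIPL on chromosome 7. CDK7 and CCNH, which encode the kinase that activates other CDKs and its cyclin, changed by 0.55 ± 0.06 (edgeR adjusted p = 3.55e-05) and 0.46 ± 0.06 (edgeR adjusted p = 0.000107). On chromosome 5, 99 of 521 genes tested (19.0%) were called higher and on chromosome 7 236 of 600 (39.3%), against 6.03% of all genes. Chromosome 20, which holds none of these genes, was also above that share, with 58 of 350 (16.6%). The falls were TFDP1, the E2F dimer partner (-0.43 ± 0.08), and E2F7 (-0.27 ± 0.07), and the count was 1 without GFP replicate 2 or 3 or without dnLEF1 replicate 1 or 2. Of the 16 Wnt genes APCDD1 and TNFRSF19 rose and ZNRF3 fell. The fall of ZNRF3 passed only with all libraries or without dnLEF1 replicate 3 or 4 or GFP replicate 1 among the fits that left out 1 library.

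Between the GFP libraries of the lines, MYC target genes were mostly higher in SW620. MYC transcript was 1.40-fold higher there and MYCL 6.00-fold lower, and a link to the target genes was not tested. Of 40 target genes tested, 32 were higher and 1 lower, with a median of 0.53. Over all genes 37.7% were called higher and the median was -0.02. The higher count was 29 to 36 over the alternatives, and 32 without SW620 GFP replicate 3. RRP9 was at 47.3 CPM in SW480 GFP and 77.0 CPM in SW620 GFP, and NOLC1 at 335 and 511 CPM. Of 38 E2F target genes 22 were higher and 10 lower, with a median of 0.27. Of 25 p53 targets 6 were higher and 10 lower, where 78.0% of all genes were called and 40.3% were called lower. The list thus did not exceed the background. PHLDA3, a p53 target that restrains AKT, was at 54.8 CPM in SW480 GFP and 1.84 CPM in SW620 GFP. CDKN1A was therefore not the only one of these genes close to 0 in SW620, though 6 of the list were higher there. Scaling by total counts moved the median of all genes by over 0.1 between the lines, from -0.02 to -0.12 on the log2 scale with GFP and from -0.01 to -0.12 with dnLEF1, and CDK4 was then higher in SW620 GFP by 0.09 (edgeR adjusted p = 0.313).

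**Figure D5:**
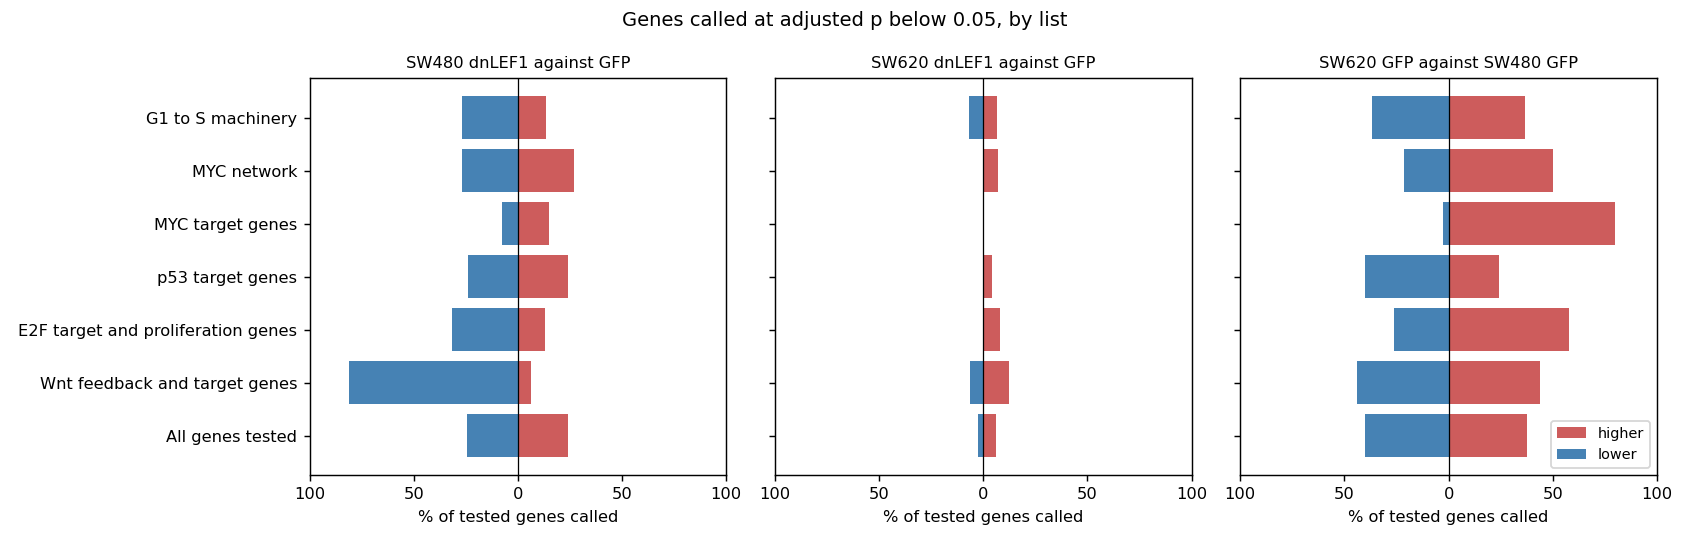
Share of the tested genes of each list called higher (right of 0) or lower (left of 0) at an adjusted p below 0.05 in 3 comparisons, with all genes tested in the bottom bar. The MYC target genes lie mostly on the higher side in SW620 GFP against SW480 GFP and the Wnt genes on the lower side with dnLEF1 in SW480.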

How the data were processed

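Counts of reads per gene were deposited by the authors, 1 table per library; Trimmomatic, TopHat2, HTSeq, DESeq2 and hg38 are named per the submitters' processing notes. Which versions, gene models and strand mode were used is not given in the sources used here, so reads of genes that overlap on opposite strands cannot be told apart. The 5 summary lines were left out of totals. The main test was the quasi-likelihood test of edgeR 4.0.16 (R 4.3.3), after filterByExpr and with TMM factors, on the groups compared; the line difference used all 16 libraries. Its p-values were adjusted by Benjamini-Hochberg over all genes tested. The standard error is the log2 change divided by the square root of F. CPM used TMM scaling of all 16 libraries. Each library counted as 1 sample. Replicates differed by more than sampling noise (lowest chi-square per degree of freedom 1.99), which does not show that they were separate cultures. In SW480, replicates 2 and 3 were the closest pair with each construct. Their values were 1.99 with GFP and 2.33 with dnLEF1, and the next lowest were 6.78 and 13.3. Alternatives were RLE scaling, total counts, DESeq2 1.42.0, limma 3.58.1 voom, no filter, a replicate block, a fit of all libraries, and each library left out. Exon lengths and positions came from GENCODE 44 (22923 of 26485 symbols, 86.6%). Figures were drawn with matplotlib 3.10.9. The procedure was tested on simulated data. The members and gene lists were chosen with earlier results of these data known. Named genes were the 10 members, LEF1, AXIN2, CDKN2A, CDKN2B-AS1, up to 4 called genes per list and dnLEF1 comparison with the smallest adjusted p, and the 3 nearest profiles (mean of at least 5 CPM) of members spanning more than 1 on the log2 scale. CDK6 neighbours within 10 Mb and list counts between the GFP lines under the alternatives were added after seeing the data. One gene that the rule would name is not reported here.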

Additional observations from a re-analysis of the deposited data

Results flagged for a closer look

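CDK6 in SW620 GFP replicate 1, at 478 CPM, lay apart from the other 3 libraries of its group, at 631 to 642 CPM. Chance marks about 1 in 20 groups in this way. The effect of dnLEF1 differed between SW620 and SW480 by the edgeR interaction test for 5 genes, all with the SW620 effect above the SW480 effect. The log2 difference was 1.93 for MYCL, 1.19 for CCND1, 2.71 for CCND2, 1.01 for CDK6 and 0.98 for CDKN2B.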

How the results depend on the processing

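In SW480 the members had 1 gene higher and 5 lower in all 15 alternatives. In SW620 they had 0 and 0 in every alternative but the replicate block, which gave 2 higher (CDK6, edgeR adjusted p = 0.0163, and CDKN2B, 0.0141) and 1 lower (CCND3, 0.0237). The same block gave 676 genes called lower in SW620 against 324, MYC targets 2 higher and 2 lower, E2F targets 5 higher and 1 lower, Wnt genes 4 higher and G1 to S genes 4 lower. The replicate numbers were not taken as pairing: correlations of same-numbered libraries ran from -0.14 to 0.299 in SW480 and from -0.038 to 0.447 in SW620, and 1 of 4 pairs in SW480 and 3 of 4 in SW620 were closest to their own number. Between the GFP lines the replicate block also called CDK4 (log2 0.19, edgeR adjusted p = 0.0136). DESeq2 called 4 Wnt genes higher in SW620. For the line difference, 1 member (CCND3) was lower with RLE scaling, total counts, DESeq2, limma voom and the replicate block, and 0 to 1 with a library left out. Total counts gave 5 MYC network genes lower in SW620 GFP than in SW480 GFP, against 3. The median change around CDK6 in SW480 was -0.0715 within 2 Mb and 0.0924 within 10 Mb. With 1 library left out, the log2 change of CDK4 was -0.045 to 0.137 in SW480 and -0.025 to 0.104 in SW620, that of CDKN1B in SW620 -0.015 to 0.044, and that of MYCL in SW620 -0.128 to 0.215; the line difference was -0.102 to 0.073 for CDK4 and -0.123 to 0.261 for CDKN1A. Counts with 1 library left out were 2 to 12 MYC targets higher, 4 to 9 E2F targets higher and 4 to 11 G1 to S genes lower in SW480, and 0 to 2 MYC targets higher, 1 to 2 G1 to S genes lower and 0 to 1 Wnt genes lower in SW620. The cause of these changes was not tested. Depth limited CCND2 in SW620, with 24 and 12 counts per group.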
